A study of Mus musculus with 11 samples.

Results

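The nuclear genes for subunits of the respiratory chain and of ATP synthase were followed over 11 Affymetrix Mouse Genome 430 2.0 arrays of cultured mouse oligodendrocyte lineage cells. Members were the genes whose symbol, in the platform annotation, began with Nduf and a letter a, b, c, s or v before a digit, with Uqcr, Cox4 to Cox8 or Atp5, or was Sdha, Sdhb, Sdhc or Sdhd, on probe sets annotated to exactly 1 gene. This gave 81 of 18194 genes, on 164 of the 45101 probe sets. Of these genes 35 belonged to complex I by symbol, 4 to complex II, 8 to complex III, 17 to complex IV and 17 to complex V. With a signal of at least 200 on 3 arrays, 74 of the 81 genes passed the filter on dim probe sets and entered the test, among 10070 genes in all.

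The CKO oligodendrocytes (n = 3) were MRF fl/fl; Olig2 wt/cre. MRF is Myrf, a transcription factor needed for myelin gene expression, and Cre is driven from the Olig2 locus, which is active across the oligodendrocyte lineage. The control oligodendrocytes (n = 4) came from MRF wt/fl; Olig2 wt/cre littermates, so both groups carried Cre at Olig2 and at least 1 floxed allele. Both were kept for 4 days without PDGF and with T3 at 40 ng/ml. The oligodendrocyte precursor cells, OPC (n = 4), were kept for 6 days in PDGF-AA at 10 ng/ml, and their genotype is given only as control. All cells came from brains at postnatal day 7, after depletion of microglia with BSL1 and panning on antibody to PDGFRα, and grew in serum-free medium with 2% B-27. In such bulk cultures, fewer cells of a type and less RNA per cell cannot be told apart.

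Complexes I and II take electrons from NADH and succinate and pass them through ubiquinone to complex III, which hands them to cytochrome c. Complex IV passes them on to oxygen, and complex V, the ATP synthase, uses the proton gradient built by complexes I, III and IV to make ATP. Dividing progenitors and cells that build myelin membrane both use much ATP, while mature oligodendrocytes of mice are known to survive a loss of complex IV assembly.

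Several arrays stood apart. Gapdh is probed near both ends of its transcript, and the 5′ signal over the 3′ signal, which falls when RNA or labelled copies are short, was 1.26 to 1.41 on the oligodendrocyte arrays and 0.332, 1.23, 1.15 and 0.12 on OPC replicates 1 to 4. OPC replicate 2 had a Myrf signal of 6848, against 752.1 to 1135 on the other OPC arrays. Myrf signals were 1904 to 2849 on CKO arrays and 6215 to 7517 on control arrays. Summed signals of 7 measured oligodendrocyte markers were 54710 to 66550 on CKO, 97780 to 121200 on control and 18420 to 73360 on OPC arrays, and Gfap, an astrocyte gene, was at 14658 to 17212 on oligodendrocyte arrays against 61.8 to 100.3 on OPC arrays. Counts against OPC are therefore given with and without OPC replicates 1 and 4, and for single genes it is said where a call did not hold without them. For complexes I and V the genes that lost the call are named instead. That setting keeps only OPC replicates 2 and 3, and replicate 2 is the array with the high Myrf signal. Whether calls lost there follow from RNA length, from replicate 2 or from fewer arrays was not tested. Whether the replicates came from separate animals or cultures is not given, and the p-values therefore reflect array-to-array spread alone, which may be technical.

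In CKO against control oligodendrocytes, 0 of the 74 respiratory chain genes passed an adjusted p of 0.05 (limma fit of all 11 arrays), while 3.64% of all genes were called higher and 3.88% lower. At an unadjusted p under 0.05, 1 member was higher and 0 were lower. The differences were small. Of the members, 72 of 74 (97.3%) had a log2 difference within 0.5 of 0, against 72.4% of all genes. Their median difference was -0.12 against 0.03 for all genes, and 60 of 74 (81.1%) lay below 0, against 46.6% of all genes. The median was -0.03 after quantile normalization and -0.19 after median centring, where that of all genes was 0 and -0.03. Groups of arrays did not overlap for 2 genes with CKO above (17.4% of all genes) and 3 with CKO below (14.2% of all genes).

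**Figure D1:**
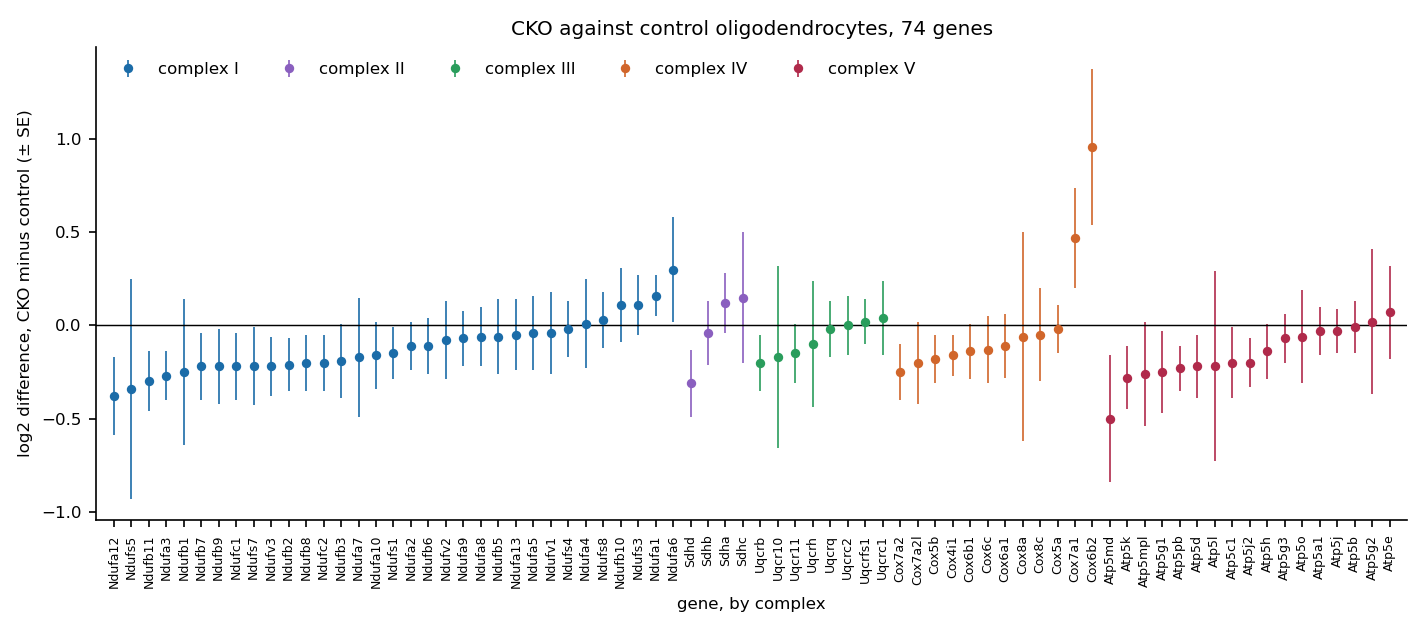
Log2 difference in signal between CKO and control oligodendrocytes for the 74 tested genes, ordered within complexes I to V. Points are fitted differences and bars are standard errors of the fit of all 11 arrays. Most points lie slightly below 0, and Cox6b2 has the highest value at 0.96.

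By complex, 27 of 33 genes of complex I lay below 0, with a median of -0.15 and a range of -0.38 to 0.30. In complex V 15 of 17 lay below 0, with a median of -0.20, and in complex IV 10 of 12, with a median of -0.12. Complexes II and III had medians of 0.04 and -0.06. The mean log2 level over all 74 genes was 12.34, 12.34 and 12.55 on CKO replicates 1 to 3 and 12.51, 12.49, 12.60 and 12.43 on control replicates 1 to 4. CKO replicate 3 lay within the control range and the other CKO arrays lay below it, while each CKO array was below the control array of its own number.

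Cox6b2, the testis-type form of a complex IV subunit, was the member that differed most. Its signal was 498.5, 591.6 and 549.5 on CKO arrays, and 326.6, 245.3, 244.9 and 278.8 on control arrays. Every CKO array was above every control array. The log2 difference was 0.96 ± 0.42 (SE), with an adjusted p of 0.211 in the limma fit of all 11 arrays. OPC signals of 129.6, 365.9, 473.4 and 103.2 enter the error of that fit. With only the CKO and control arrays in the limma fit the difference was again 0.96, now ± 0.16 (SE), and the adjusted p was 0.0044. In that fit Cox6b2 was the 1 member called higher and 0 were called lower, where 8.29% and 7.47% of all genes were called.

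With replicate number as a block in limma, on the 3 pairs of CKO and control arrays, Cox6b2 was 0.97 higher (adjusted p = 0.0154) and 2 members were lower. These were Atp5md, the small subunit also known as DAPIT, at -0.57 (adjusted p = 0.028), and Ndufa3, an accessory subunit of complex I, at -0.35 (adjusted p = 0.0328). In the blocked fit 13.0% of all genes were called higher and 9.24% lower. Atp5md had signals of 6795, 4030 and 6255 on CKO arrays, and of 8606, 7501, 8780 and 6755 on control arrays. The highest CKO array was just above the lowest control array. Ndufa3 had signals of 9682, 9141 and 10019 on CKO arrays, and of 12590, 11566, 12633 and 9694 on control arrays, which overlapped through control replicate 4.

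Cox7a1, the heart and skeletal muscle form of another complex IV subunit, had signals of 193.8, 252 and 247.9 on CKO arrays, 149.1, 201, 130.5 and 173.1 on control arrays, and 37.7, 63.9, 42.2 and 32 on OPC arrays. All oligodendrocyte arrays were above all OPC arrays, while CKO replicate 1 lay within the control range. CKO minus control was 0.47 ± 0.27 (SE) on the log2 scale, with an adjusted p of 0.349 in limma. Against OPC, Cox7a1 was at least 2.12-fold higher in CKO oligodendrocytes and at least 1.53-fold higher in control oligodendrocytes, with OPC signals raised to a floor of 100. It reached the signal minimum of 200 on oligodendrocyte arrays only, so that its call against OPC, counted below, followed in part from the filter and is no support.

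Markers of other cell types also differed between these cultures. The summed signal of 9 smooth muscle, pericyte and fibroblast markers was 4694 to 8229 on CKO arrays, 985.3 to 2832 on control arrays and 329.9 to 575.2 on OPC arrays, and 3 of the 9, Acta2, Tagln and Myl9, passed the filter. Tagln was higher in CKO than in control by 2.58 on the log2 scale (limma adjusted p = 0.0189) and Myl9 by 1.75 (adjusted p = 0.0386). On control replicate 3 Tagln was at 80.7, and Cox7a1 there had the lowest control signal, 130.5. The summed signal of 8 astrocyte markers was 83450 to 89820 on CKO arrays, 55790 to 75640 on control arrays and 5074 to 10500 on OPC arrays. The part of these cells in the signals of Cox7a1 and Cox6b2 was not tested. Microglial and endothelial markers did not pass the filter.

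The widely expressed forms of the complex IV subunits differed little between CKO and control. Cox6b1 had signals of 14111, 12784 and 17635 on CKO arrays, 16188, 15334, 17357 and 16226 on control arrays, and 17174, 21667, 25058 and 24875 on OPC arrays. CKO and control overlapped. CKO minus control was -0.14 ± 0.15 (SE) for Cox6b1, -0.25 ± 0.15 for Cox7a2, -0.11 ± 0.17 for Cox6a1 and -0.16 ± 0.11 for Cox4i1, none past the threshold. Of the tissue-specific forms, Cox4i2 (lung type), Cox6a2 and Cox8b (heart and muscle type) and Cox7b2 had no probe set past the filter, with highest signals of 52.6, 110.4, 35.5 and 36.4 on any array in their brightest probe set. Cox8c, another testis-type form, lay at 137.3 to 214.3 on CKO arrays, 125.7 to 230.4 on control arrays and 180.4 to 209.9 on OPC arrays, which overlapped throughout.

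The 250 bases before the annotated start of 4 of these genes are shown because the pair of tissue-type forms that stood out, Cox7a1 and Cox6b2, can be set beside the widely expressed Cox6b1 and Cox6a1. They are from RefSeq on build GRCm38.p6, 5′ to 3′ in the direction of transcription, at chr7:30183921-30184170 (+) for Cox7a1, chr7:4753095-4753344 (-) for Cox6b2, chr7:30626115-30626364 (-) for Cox6b1 and chr5:115348959-115349208 (-) for Cox6a1. Capitals mark matches to 3 motifs known from this gene class, searched on both strands: CCGGAAG, bound by ETS factors such as Gabpa; AAGATGGC, bound by Yy1; and the NRF1 motif, GCGCA followed by TGCGC.
Cox7a1: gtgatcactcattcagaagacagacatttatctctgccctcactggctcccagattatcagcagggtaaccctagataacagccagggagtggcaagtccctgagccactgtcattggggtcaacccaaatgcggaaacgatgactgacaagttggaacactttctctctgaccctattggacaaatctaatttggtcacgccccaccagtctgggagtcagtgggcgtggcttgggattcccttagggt
Cox6b2: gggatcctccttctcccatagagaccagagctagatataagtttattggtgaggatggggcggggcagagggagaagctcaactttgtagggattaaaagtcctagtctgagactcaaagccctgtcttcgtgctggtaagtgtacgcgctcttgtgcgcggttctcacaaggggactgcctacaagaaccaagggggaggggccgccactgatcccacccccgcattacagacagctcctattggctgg
Cox6b1: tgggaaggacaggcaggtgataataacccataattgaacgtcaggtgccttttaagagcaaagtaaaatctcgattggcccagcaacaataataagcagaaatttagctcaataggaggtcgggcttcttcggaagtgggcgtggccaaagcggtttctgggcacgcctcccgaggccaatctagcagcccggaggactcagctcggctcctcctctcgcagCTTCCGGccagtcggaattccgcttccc
Cox6a1: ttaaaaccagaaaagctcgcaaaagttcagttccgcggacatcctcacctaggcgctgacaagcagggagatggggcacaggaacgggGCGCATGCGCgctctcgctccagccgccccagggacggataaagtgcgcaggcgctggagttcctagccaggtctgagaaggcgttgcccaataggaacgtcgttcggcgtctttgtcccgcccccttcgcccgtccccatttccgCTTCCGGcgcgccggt

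Cox7a1 and Cox6b2 held none of the 3 motifs in these windows, Cox6b1 held the ETS motif on the other strand, and Cox6a1 held the NRF1 and ETS motifs. Promoters of 300 bases, reaching 50 past the start, were found for 66 of the 81 genes, 71 promoters in all. The ETS motif was in 17 of the 71 (23.9%), against 8.86% of the 32851 promoters in the table. Yy1's motif was in 12.7% against 2.75%, and that of NRF1 in 5.63% against 0.971%. At least 1 of the 3 motifs was in 27 of the 71 (38%), against 11.9% of all promoters. Most member promoters thus held none, and neither did that of the widely expressed Cox7a2. Lack of a match was therefore not particular to Cox7a1 and Cox6b2. A match of letters shows no binding.

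Against OPC, members moved in both directions, and most of those called were lower in oligodendrocytes. In control oligodendrocytes 10 of 74 were called higher (24.4% of all genes) and 25 lower (29.6% of all genes) in limma. In CKO oligodendrocytes 6 were higher (23.8% of all genes) and 32 lower (26.8% of all genes). Both comparisons share the OPC arrays. The share of called members that was higher, 28.6% for control and 15.8% for CKO, was 48.1% and 39.1% after quantile normalization. Then 13 members were higher and 14 lower in control oligodendrocytes (23.7% and 30.3% of all genes), and 9 higher and 14 lower in CKO oligodendrocytes (22.7% and 28.9% of all genes). Without OPC replicates 1 and 4, the counts were 3 higher and 25 lower for control (19.9% and 22.7% of all genes) and 2 higher and 33 lower for CKO (20.1% and 21.4% of all genes). The split between higher and lower members thus changed with the scaling and with these arrays. Without OPC replicate 2 alone, the 10 higher and 25 lower calls in control all stayed, as did 6 higher and 30 of 32 lower calls in CKO. Further members, such as Cox8a, were then called higher. The matching share of all genes was not counted.

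**Figure D2:**
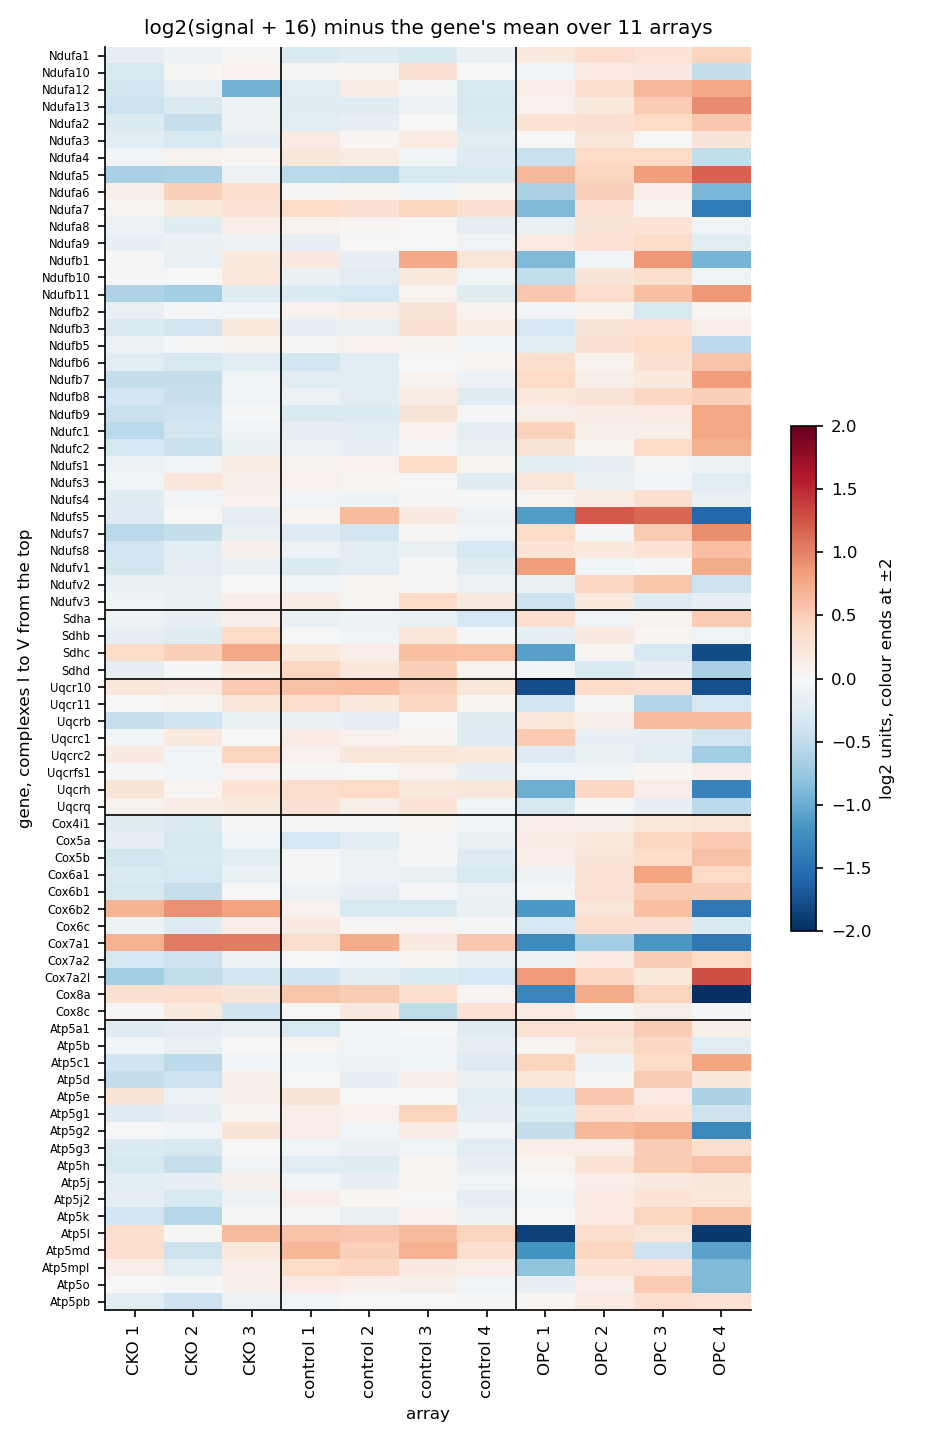
Log2(signal + 16) of each tested gene minus its mean over the 11 arrays, with genes in rows by complex and arrays in columns, CKO then control then OPC. Colour ends at 2 log2 units on either side. OPC replicates 1 and 4 carry the darkest blue cells, as for Atp5l, Cox8a and Uqcr10, and Cox7a1 is low on all 4 OPC arrays.

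In complex I, 16 of 33 genes were lower in CKO oligodendrocytes (26.8% of all genes) and 14 of 33 in control oligodendrocytes (29.6% of all genes). Without OPC replicates 1 and 4, Ndufa3, Ndufb9, Ndufs8 and Ndufv1 lost the call in CKO. In control Ndufb6, Ndufb7, Ndufc1, Ndufc2, Ndufs7 and Ndufv1 lost it. Others, such as Ndufv2, were then called lower in both groups. After quantile normalization Ndufa1, Ndufa3, Ndufs8 and Ndufv1 lost the call in CKO, and Ndufa12 and Ndufc2 in control. Ndufb11, a subunit of the membrane arm, had signals of 5731, 5415 and 7333 on CKO arrays, 7188, 6768, 8972 and 7330 on control arrays, and 12572, 11096, 13200 and 15811 on OPC arrays. Every OPC array was above every oligodendrocyte array. The log2 difference from OPC was -1.10 ± 0.16 (SE) for CKO (limma adjusted p = 0.000226) and -0.80 ± 0.15 for control (adjusted p = 0.00108). The second brightest Ndufb11 probe set was also called lower in both groups. The dimmest one past the filter gave -0.08 and 0.08, so the probe sets of this gene did not all show the difference. The brightest, used above, ends in _x_at and is of a type whose probes can match other transcripts. The second brightest and the dimmest are not of that type.

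Ndufa13, also known as GRIM-19, had 1 probe set and was lower in both oligodendrocyte groups. That probe set ends in _s_at, a type whose probes can be shared by several transcripts, as do those of 10 tested members in all. Its signals were 6700, 7341 and 8406 on CKO arrays, 7577, 7630, 8423 and 7225 on control arrays, and 9548, 10281, 12865 and 17362 on OPC arrays. The groups did not overlap with OPC, and the log2 difference was -0.71 ± 0.19 (SE) for CKO (limma adjusted p = 0.00855) and -0.66 ± 0.17 for control (adjusted p = 0.00771). Ndufs7, which carries an iron-sulfur cluster, was at -0.84 and -0.62, Ndufa12, an accessory subunit, at -0.96 and -0.58, and Ndufb7, of the membrane arm, at -0.73 and -0.51. All 3 passed the threshold in both groups with all arrays. Without OPC replicates 1 and 4, Ndufs7 was at -0.41 (limma adjusted p = 0.116) and Ndufb7 at -0.28 (adjusted p = 0.156) in control, no longer past it. Ndufs7 was at 3838 on OPC replicate 2, within the control range of 3012 to 3985, and at 5573 on OPC replicate 3. After quantile normalization Ndufa12 was at -0.38 in control (adjusted p = 0.102). By their second probe sets neither Ndufs7 nor Ndufb7 was called in either group. Ndufa1, a small accessory subunit, was at -0.40 and -0.55, also past the threshold in both, and at 0.05 in CKO after quantile normalization. Ndufa7, an accessory subunit, was the 1 gene of complex I that was higher, at 0.84 in control oligodendrocytes (limma adjusted p = 0.0315), with OPC signals of 3837, 8677, 7334 and 2684 that were lowest on replicates 1 and 4. Without these replicates it was at 0.19 (adjusted p = 0.228).

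In complex II, succinate dehydrogenase, the membrane anchor Sdhc was higher in both oligodendrocyte groups and the anchor Sdhd in control oligodendrocytes, each by its brightest probe set. Sdhc had signals of 5464, 5885 and 7221 on CKO arrays, 4938, 4658, 6472 and 6403 on control arrays, and 1989, 4414, 3418 and 1217 on OPC arrays. The log2 difference from OPC was 1.32 ± 0.35 (SE) for CKO (limma adjusted p = 0.0087) and 1.17 ± 0.33 for control (adjusted p = 0.0101). Without OPC replicates 1 and 4 it was 0.66 (limma adjusted p = 0.0266) and 0.51 (adjusted p = 0.0543). Its second probe set gave 0.52 and 0.35, not past the threshold.

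Sdhd, the other anchor, had signals of 2560, 2881 and 3336 on CKO arrays, 3928, 3432, 4067 and 3068 on control arrays, and 2827, 2352, 2598 and 1868 on OPC arrays. Control arrays lay above all OPC arrays, while CKO arrays overlapped with them. Control minus OPC was 0.59 ± 0.17 (SE, limma adjusted p = 0.0108), and CKO minus OPC was 0.29 ± 0.18 (adjusted p = 0.204). Its second probe set gave 0.07 for control minus OPC. Sdha, the flavoprotein, was at -0.39 in control oligodendrocytes (limma adjusted p = 0.0421) and at -0.26 in CKO (adjusted p = 0.181). The control call was lost in 15 of 23 alternatives, among them without OPC replicates 1 and 4, at -0.18 (adjusted p = 0.294). Sdhb, the iron-sulfur subunit, gave 0.00 ± 0.17 (SE) in CKO and 0.04 ± 0.16 in control.

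In complex III, Uqcr11, a small subunit named here after its values were seen, had signals of 5632, 5773 and 6569 on CKO arrays, 7107, 6356, 7470 and 5756 on control arrays, and 4269, 5661, 3709 and 4374 on OPC arrays. Control arrays were all above OPC arrays, with a log2 difference of 0.58 ± 0.15 (SE, limma adjusted p = 0.00741) and of 0.53 without OPC replicates 1 and 4. Uqcrb, the ubiquinone-binding subunit, was at -0.73 in CKO and -0.53 in control, both past the threshold. Its second probe set gave 0.06 and 0.30, and after quantile normalization it was at -0.12 and -0.04, without a call.

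Cox7a2l, a relative of Cox7a2 that joins complexes III and IV into supercomplexes, was lower in oligodendrocytes. Its signals were 3092, 3527 and 3863 on CKO arrays, 3771, 4267, 4089 and 3929 on control arrays, and 8963, 6599, 5694 and 12198 on OPC arrays. Every oligodendrocyte array lay below every OPC array. The log2 difference was -1.20 ± 0.22 (SE) for CKO (limma adjusted p = 0.00108) and -0.99 ± 0.21 for control (adjusted p = 0.00197), and -0.81 and -0.61 without OPC replicates 1 and 4. A second probe set gave -1.18 and -1.02. Another, ending in _x_at and so of a type whose probes can match other transcripts, gave -0.09 and -0.07. Probe sets of that type also stood for 6 tested members, Ndufb11 and Ndufa12 among them. Thus Cox7a1 was higher and Cox7a2l lower than in OPC, while Cox7a2 was at -0.53 in CKO (limma adjusted p = 0.011) and -0.27 in control (adjusted p = 0.109). After quantile normalization Cox7a2 was at 0.05 in CKO and 0.19 in control, the second past the threshold.

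**Figure D3:**
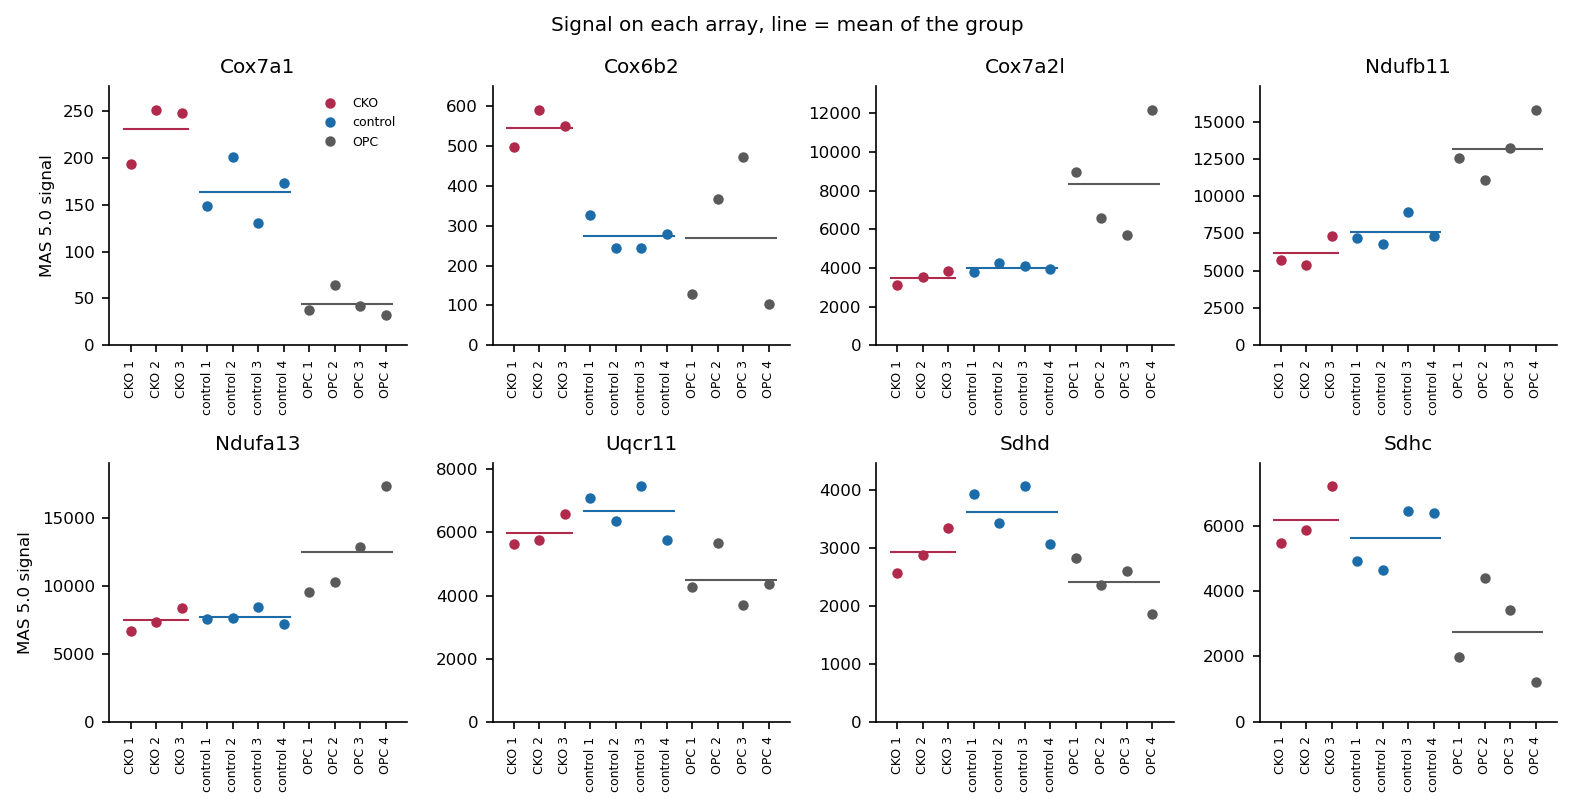
MAS 5.0 signal of 8 genes on each array from a zero baseline, CKO (red), control (blue) and OPC (grey), with a line at the group mean. Cox7a1 is higher on all oligodendrocyte arrays than on any OPC array, Cox7a2l, Ndufb11 and Ndufa13 are lower on all of them, and Cox6b2 is higher on the 3 CKO arrays than on the 4 control arrays.

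In complex V, 8 of 17 genes were called lower in CKO (26.8% of all genes) and 4 of 17 in control oligodendrocytes (29.6% of all genes). After quantile normalization only Atp5k among these was still called lower in CKO. In control Atp5a1, Atp5c1, Atp5g3 and Atp5h were then not called. The shares of all genes called lower were 28.9% and 30.3%. Without OPC replicates 1 and 4, Atp5d lost the call in CKO, while Atp5b was called lower in both groups. Atp5c1, the gamma subunit of the central stalk, was at -0.70 ± 0.19 (SE) in CKO (limma adjusted p = 0.00832) and -0.50 ± 0.17 in control (adjusted p = 0.0281). Neither call held without OPC replicates 1 and 4, at -0.46 (limma adjusted p = 0.0571) and -0.26 (adjusted p = 0.225), or after quantile normalization, at -0.28 and -0.17. Of the 3 genes for the c-ring, which carries the protons, Atp5g3 was at -0.48 in CKO (limma adjusted p = 0.00839) and -0.41 in control (adjusted p = 0.012), and at 0.06 and -0.02 after quantile normalization, without a call. Atp5g1 gave -0.11 and 0.14, and Atp5g2 0.17 and 0.15, none past the threshold. After leaving out OPC replicates 1 and 4, Atp5g2 was at -0.61 and -0.64 and past the threshold in both.

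Several large rises in oligodendrocytes came with low signals on OPC replicates 1 and 4. Atp5l, the g subunit of ATP synthase, had signals of 7388, 5946 and 9130 on CKO arrays, 8744, 8515, 9138 and 8020 on control arrays, and 1601, 7526, 6979 and 1530 on OPC arrays. OPC replicates 2 and 3 lay within the CKO range. Control minus OPC was 1.35 ± 0.47 (SE, limma adjusted p = 0.0293) with all arrays and 0.25 (adjusted p = 0.239) without OPC replicates 1 and 4. Uqcr10 of complex III likewise gave 1.19 (adjusted p = 0.0416) and 0.13 (adjusted p = 0.503), and Atp5md 1.11 (adjusted p = 0.0105) and 0.54 (adjusted p = 0.126).

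Cox8a, with signals of 4623, 4751 and 4490 on CKO arrays, 5517, 5363, 4745 and 3884 on control arrays, and 1517, 6275, 5116 and 784.3 on OPC arrays, showed the same split without passing the threshold. For Cox6b2 the split changed the sign of control minus OPC, 0.27 with all arrays and -0.59 (limma adjusted p = 0.0338) without these replicates. OPC replicates 1 and 4 were both below replicates 2 and 3 for 31 of the 74 members (41.9%), against 25.2% of all genes, and both above for 8 (10.8%), against 29.7%.

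**Figure D4:**
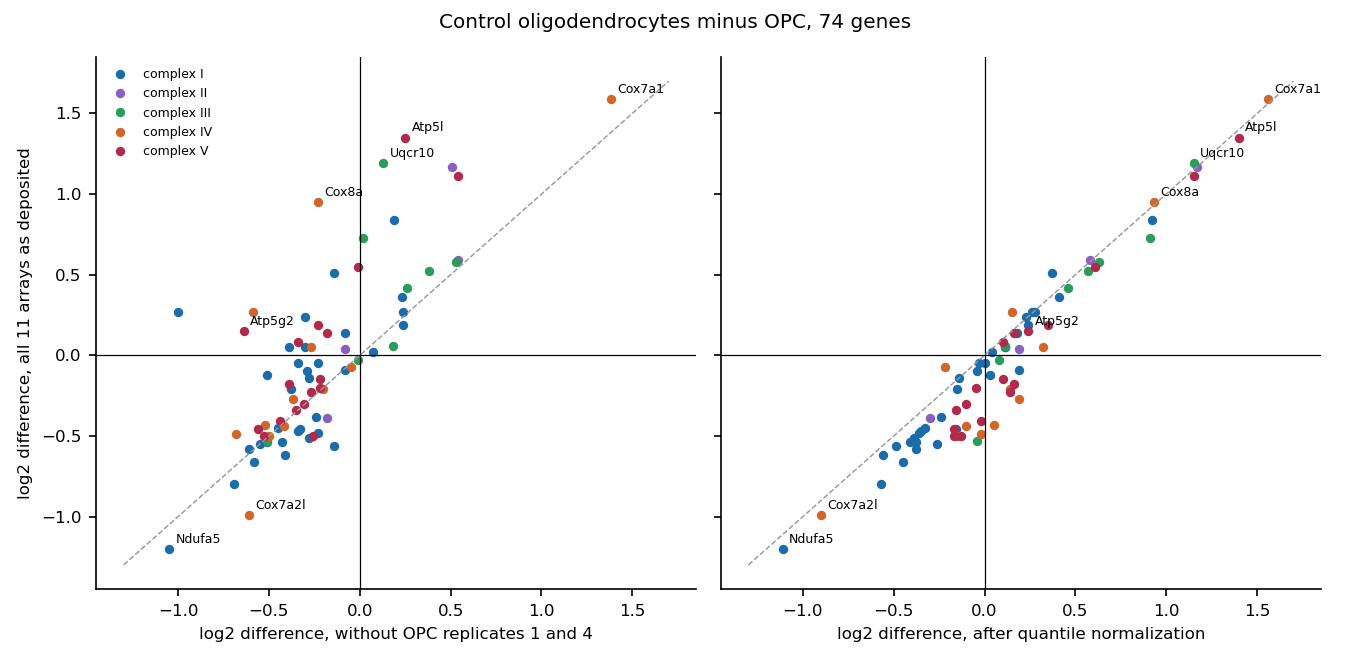
Log2 difference of control oligodendrocytes minus OPC for the 74 tested genes, with all 11 arrays as deposited on the vertical axis and, on the horizontal axes, without OPC replicates 1 and 4 (left) or after quantile normalization (right). The dashed line marks equal values. Atp5l and Uqcr10 move towards 0 on the left, and Cox7a1, whose OPC signals lie below the floor, has the highest fitted value in both panels.

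Among the 39 members with at least 2 probe sets past the filter, the probe sets of a gene differed in sign for 20 (51.3%) in control against OPC, where 34.5% of all such genes did, and for 9 (23.1%) in CKO against control, where 25.7% did. For 7 of the 39, 1 probe set had both OPC replicates 1 and 4 below replicates 2 and 3 and another had both above. Ndufa5, an accessory subunit of complex I, was 1 of those with opposite signs. Its brightest probe set had signals of 2572, 2638 and 3738 on CKO arrays, 2778, 2745, 3274 and 3324 on control arrays, and 6404, 5466, 7226 and 9175 on OPC arrays, with a log2 difference of -1.20 ± 0.18 (SE) for control against OPC (limma adjusted p = 0.000287). Its second had 1718, 1762 and 2026 on CKO arrays, 2048, 1759, 1761 and 1544 on control arrays, and 1021, 2112, 2582 and 756.8 on OPC arrays, with a difference of 0.30. The first puts all OPC arrays highest, and the second puts OPC replicates 1 and 4 lowest of all.

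**Figure D5:**
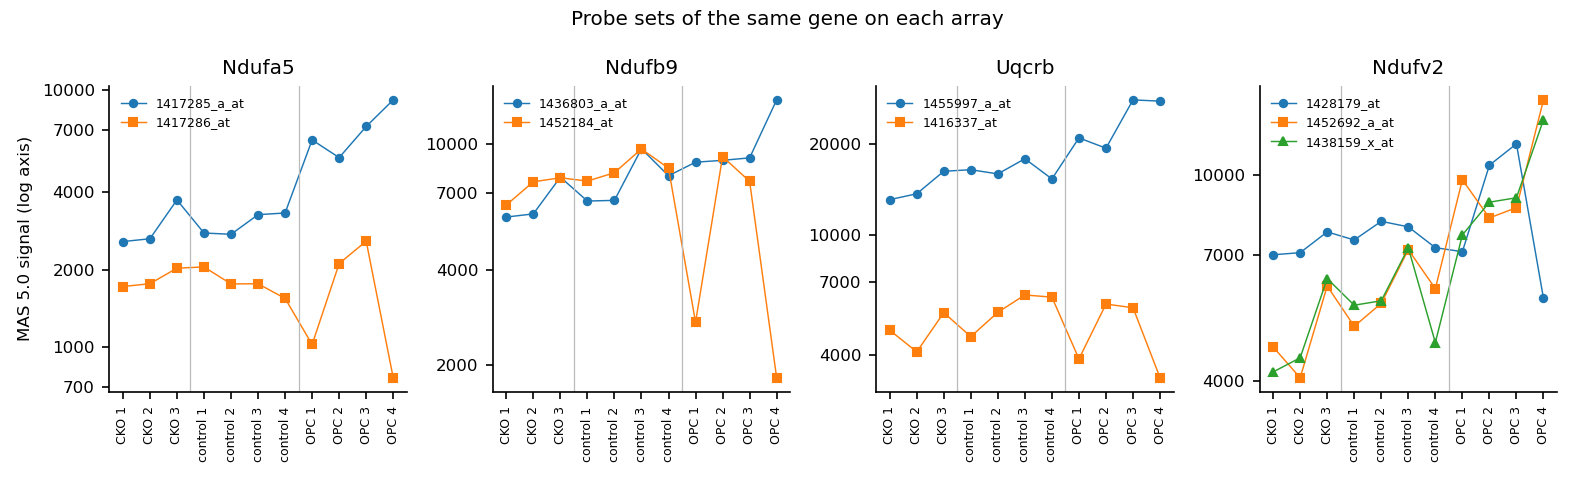
MAS 5.0 signal (log axis) of each probe set past the filter of Ndufa5, Ndufb9, Uqcrb and Ndufv2 on the 11 arrays, CKO then control then OPC, with grey lines between groups. Ndufb9 and Ndufv2 were picked after their values were seen. Each gene has 1 probe set that is lowest on OPC replicate 4 and another that is higher there than on any oligodendrocyte array.

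With all of these settings together, fewer genes stood. Past the threshold as deposited, without OPC replicates 1 and 4 and after quantile normalization were Cox7a1, Sdhd and Uqcr11, higher in control oligodendrocytes than in OPC, and 8 genes that were lower, Cox7a2l, Ndufa1, Ndufa13, Ndufa2, Ndufa5, Ndufb11, Ndufb8 and Ndufs8. Of the 11, only Cox7a1, Uqcr11, Ndufa1, Ndufa13, Ndufa2 and Ndufb8 were also called by every probe set they had. Each of these had only 1 probe set past the filter, and for Ndufa13 and Ndufa2 it ends in _s_at. For Ndufs8, the second brightest probe set was not called in control oligodendrocytes against OPC and was called higher in CKO. In CKO oligodendrocytes the genes past all 3 settings were Cox7a1 and Sdhc, both higher, and 13 that were lower, 11 of them in complex I. Complex I held 33 of the 74 tested members. The share of all genes past the same 3 settings was not counted, so neither list is read as a result about the members. The genes in these lists that the naming rule does not give were chosen after their values were seen. Cox7a1 reached the signal minimum on oligodendrocyte arrays only, so its place in both lists followed in part from the filter and is no support.

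Other genes of the pathway also showed no call between CKO and control, 0 in each of 7 lists with measured genes. Against OPC with all arrays, the called regulators of mitochondrial gene expression were mostly lower, while Ppargc1a and Esrra were higher. Ppargc1a, a coactivator of mitochondrial biogenesis, had signals of 157.6, 326.3 and 620.8 on CKO arrays, 161.7, 150.8, 206.2 and 427.3 on control arrays, and 33.4, 48.1, 37.1 and 16.9 on OPC arrays. All oligodendrocyte arrays were above all OPC arrays. With OPC raised to the floor of 100, Ppargc1a was at least 2.89-fold higher in CKO and at least 2.00-fold higher in control oligodendrocytes. It too reached the minimum of 200 on oligodendrocyte arrays only, so its call followed in part from the filter and is no support. Its partner Esrra was higher at 0.73 in CKO and 0.54 in control, and at 0.87 and 0.68 without OPC replicates 1 and 4, each past the threshold.

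Of 16 tested regulators 2 were higher and 8 lower in CKO (23.8% and 26.8% of all genes) and in control (24.4% and 29.6% of all genes). The higher ones were Ppargc1a and Esrra, so that only Esrra was called higher without the part of the filter. With OPC replicates 1 and 4 left out, 2 were lower in CKO and 4 in control. Gabpa, which binds the ETS motif above, was at -0.75 ± 0.15 (SE) in control oligodendrocytes (limma adjusted p = 0.00168), where Polg, the polymerase of mitochondrial DNA, was at -0.92 and Tfam, which packs that DNA, at -0.45. Without OPC replicates 1 and 4, Gabpa and Polg were at -0.67 and -0.90, still called, and Tfam at -0.34 (adjusted p = 0.127). Of 76 mitochondrial ribosome genes 0 were higher and 24 (31.6%) lower in CKO, and 3 (3.95%) higher and 18 (23.7%) lower in control. The lower shares were near those of all genes, 26.8% and 29.6%. On the higher side the shares were below those of all genes, 23.8% and 24.4%. The lower counts were 16 and 12 when OPC replicates 1 and 4 were left out. Mrpl52 was at -1.85 in CKO and -1.79 in control. Cyc1, the cytochrome subunit of complex III that the symbol rule leaves out, was at -0.99 in CKO and -0.73 in control, and cytochrome c, Cycs, at -0.69 and -0.40. Hccs, which attaches heme to cytochrome c, was at 1.32 and 1.09. Without OPC replicates 1 and 4, Cycs was at -0.27 in control (limma adjusted p = 0.192) and Hccs at 0.61 and 0.38, still called.

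The remaining lists are counted in control oligodendrocytes against OPC, where 24.4% of all genes were higher and 29.6% lower. Of 43 assembly factors 6 were higher and 8 lower, of 17 genes of the citric acid cycle and pyruvate dehydrogenase 1 was higher and 4 lower, and of 10 genes for coenzyme Q synthesis 3 were higher and 2 lower. Without OPC replicates 1 and 4, these counts were 2 and 6, 1 and 2, and 1 and 0 (19.9% and 22.7% of all genes). Of 8 genes for ATP export and creatine, 0 were higher and 3 lower, among them Vdac3, a channel of the outer membrane, at -0.74. Without OPC replicates 1 and 4, 0 were higher and 2 lower. In CKO 0 of the 8 were higher and 5 lower (23.8% and 26.8% of all genes). There the counts without these replicates were 1 and 2 (20.1% and 21.4% of all genes). Citrate synthase, Cs, was at -0.93 in CKO and -0.62 in control, and at -0.72 and -0.41 (limma adjusted p = 0.0793 in control) without OPC replicates 1 and 4. The 13 genes encoded in mitochondrial DNA had no probe set with their symbol, so only nuclear genes are described.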

How the data were processed

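RNA of 11 samples was hybridised to Mouse Genome 430 2.0 arrays, 1 µg of total RNA each, with 2-cycle labelling per the labels' protocols. The deposited values are MAS 5.0 signals, linear intensity scaled on each chip to a target of 500, made with GCOS 1.3 per the submitters' processing notes. Every column was mapped to a sample, with 0 left unmapped.

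Probe sets with a signal of at least 200 on 3 arrays were kept, and the brightest probe set stood for each gene. log2(signal + 16) of all 11 arrays was fitted by group in limma 3.58.1 (R 4.3.3) with eBayes (trend), and p-values were adjusted by Benjamini-Hochberg over 10070 genes, with a threshold of 0.05. Fold changes of dim genes are understated on this scale. The pipeline was tested on simulated data. The number of arrays limits the precision.

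The 3 pairs of CKO and control arrays with the same replicate number had correlated deviations from their group means (0.18, 0.17 and 0.31), so the block was fitted as an alternative. 23 alternatives were run. Promoter sequences are from RefSeq.

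Named genes were the called members with the largest differences (at most 12 per comparison, and at least the top 3), the brightest member of each complex, isoform sets, complex II, and up to 3 genes per pathway list and direction. Others were named after their values were seen, among them Ndufa3, Ndufa2, Ndufb8, Ndufs8, Ndufb9, Ndufv2, Uqcr11, Tfam and the cell type markers. Members and lists were chosen with earlier results of these data known. Symbols follow the platform annotation, and Ndufa4, now counted with complex IV, is listed in complex I.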

Additional observations from a re-analysis of the deposited data

Results flagged for a closer look

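Cox7b2, an isoform of a complex IV subunit, had 1 array far from the others in each of 2 groups. On control arrays its signal was 4.4 on replicate 3, against 34 to 36.4 on the others. On OPC arrays it was 31.2 on replicate 3, against 1.4 to 3.3 on the others. All of these lie far below the signal minimum of 200. Among 72 groups of 4 arrays examined these were the 2 found. Chance gives about 1 in 20 groups, so these are not more than chance gives.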

How the results depend on the processing

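In CKO against control the counts were 0 higher and 0 lower when any 1 array was left out (0 to 0). 1 member, Cox6b2, was higher with only the 2 groups fitted, with the replicate block, with array weights and without OPC replicates 1 and 4, and 2 were lower with the replicate block. In control against OPC 6 were higher with only 2 groups, 16 with array weights and 3 without OPC replicates 1 and 4, and 14 were lower after quantile normalization. Leaving out 1 array gave 6 to 14 higher, with 6 without control replicate 1 or 3 or OPC replicate 1 or 4, and 17 to 25 lower. In CKO against OPC 2 were higher with only 2 groups, with the block and without OPC replicates 1 and 4, 3 with median centring and 14 with array weights, and 15 were lower with the block, 14 after quantile normalization and 19 by the second brightest probe set, an alternative chosen after seeing the data. Leaving out 1 array gave 2 to 13 higher, with 13 without OPC replicate 2, 2 without CKO replicate 1 or 3 and 3 without CKO replicate 2 or OPC replicate 1 or 4, and 22 to 31 lower. OPC arrays share only a number with the others (correlations of -0.09 to 0.19), and the block gave 9 higher and 20 lower in control against OPC. Shares of all genes are given above for quantile normalization and without OPC replicates 1 and 4. With median centring, 2099 of 10070 genes were higher and 3034 lower in CKO against OPC. For the other settings against OPC no such share is given, so changes in these counts cannot be told from changes over all genes.

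Of values called under the deposited scaling or the alternative, signs turned in control against OPC for Cox6b1 (0.05) and Cox7a2 (0.19) after quantile normalization, for Atp5g2 (-0.64) and Cox6b2 (-0.59) without OPC replicates 1 and 4, and for Cox6a1 (0.04), Ndufa5 (0.30), Ndufb7 (0.24), Ndufs7 (0.12) and Uqcrb (0.30) by the second probe set. In CKO against OPC they turned for Atp5g3 (0.06), Cox4i1 (0.12), Cox6a1 (0.01), Cox6b1 (0.03), Cox7a2 (0.05) and Ndufa1 (0.05) after quantile normalization, for Atp5g2 (-0.61) without OPC replicates 1 and 4, and for Cox6a1 (0.12), Cox7a2 (0.03), Ndufa5 (0.35), Ndufb7 (0.09) and Uqcrb (0.06) by the second probe set. Among values called under neither setting, Cox8a (-0.23) and Atp5g1 (-0.18) without OPC replicates 1 and 4 and Cox4i1 (0.14) after quantile normalization also turned in control against OPC. These lists cover the genes that the naming rule gives. Outside them, Ndufs8 was called lower in CKO oligodendrocytes than in OPC as deposited, and higher by its second brightest probe set. The causes were not tested.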
